A study of Mus musculus with 4 samples.

Results

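The 10 lipid-associated macrophage genes Gpnmb, Trem2, Spp1, Cd9, Cd63, Fabp5, Lgals3, Lpl, Atp6v0d2 and Anpep were followed across the liver cell types of WT, YAPKO, TAZKO and DKO mice. They are 10 of the 55488 genes counted in 4 single-cell RNA-seq libraries and were matched by symbol. They were chosen by values measured in the same libraries, with those earlier results known, namely their UMI counts by library in macrophages, Kupffer cells (KCs), monocytes, dendritic cells and other types. Their levels are therefore a description and carry no test.

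Lipid-associated macrophages are phagocytes that take up lipoproteins, dying cells and other lipid-rich debris, and they share transcripts for lipid binding, lysosomal breakdown and contact with the matrix. In liver, cells with this set are known from the surroundings of bile ducts and from steatotic and fibrotic tissue, where many derive from recruited monocytes rather than from KCs, the resident macrophages of the sinusoids. The lipid-sensing receptor TREM2 is needed for much of the set in fat tissue.

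YAP and TAZ are transcriptional coactivators of the Hippo pathway. Mice with floxed alleles of Yap, Taz or both were crossed with mice that express Cre from the albumin promoter, so that YAPKO livers lost YAP, TAZKO livers TAZ and DKO livers both proteins in hepatocytes (HCs) and biliary epithelial cells (BECs), the cells in which this Cre is active. WT livers carried neither deletion, no mouse was treated, and the age at which these 4 mice were taken for sequencing is not stated. HCs and non-parenchymal cells (NPCs) were isolated separately from each perfused liver, red blood cells were lysed, and the fractions were mixed with more NPCs than HCs before loading on 10x Genomics droplets. Each genotype was 1 library from 1 mouse, labelled replicate 1, so biological variation between mice could not be measured, and every interval given here is an exact 95% interval that covers counting error only.

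The WT library held 13657 barcodes with 66259687 UMIs, YAPKO 7711 barcodes with 85989454, TAZKO 14418 with 49022089 and DKO 9188 with 77411746. Cells were barcodes in which 500 to 6000 genes were seen and mitochondrial genes gave no more than 10% of UMIs, which left 7155 cells in WT, 6275 in YAPKO, 8638 in TAZKO and 8294 in DKO. Median depth was lowest in TAZKO, at 3555.5 UMIs per cell, against 4618 in WT, 5952.5 in DKO and 7337 in YAPKO. Cells were clustered without the 10 genes and named from marker genes. Clusters with mixed or no clear markers were left unnamed and held 7.06% of cells in WT, 9.85% in YAPKO, 8.68% in TAZKO and 8.23% in DKO. Pairs of libraries shared between 10 barcodes (YAPKO and DKO) and 67 barcodes (WT and TAZKO), and no barcode was a macrophage in both libraries of a pair.

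The deleted genes were read in HCs as a check of the labels, in CPM (UMIs scaled to a common total over the summed cells). Yap1 stood at 21.4 CPM in WT, 4.79 in YAPKO, 47.3 in TAZKO and 4.5 in DKO. Wwtr1, the gene of TAZ, stood at 5.13 CPM in WT, 13.2 in YAPKO, 1.39 in TAZKO and 2.35 in DKO. Each deleted gene was lower than in WT in the libraries labelled with its deletion, with log2 ratios of -2.16 and -2.25 for Yap1 and of -1.89 and -1.13 for Wwtr1. The median of all genes in HCs lay above WT, at log2 ratios of 0.45 in YAPKO, 0.57 in TAZKO and 0.48 in DKO.

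Macrophages numbered 65 cells in WT, 201 in YAPKO, 37 in TAZKO and 191 in DKO, with 683398, 2669005, 238912 and 1361704 UMIs. They were named from marker genes such as Cx3cr1, Ms4a7, C1qa, C1qb, C1qc and Csf1r, of which C1qb or, in TAZKO, C1qa was the most abundant. The 10 genes together made up 1673 CPM in WT macrophages, 8026 CPM in YAPKO, 1871 CPM in TAZKO and 3709 CPM in DKO. The sum was thus higher than in WT in YAPKO, by a log2 ratio of 2.26 (interval 2.18 to 2.35), and in DKO, by 1.15 (1.06 to 1.24). In TAZKO it lay close to WT, at 0.16 (0.00 to 0.32). With Lgals3 and Lpl left out, a choice made after seeing the data because these 2 genes dominate the sum in WT, the log2 ratios were 3.54, 1.31 and 2.20. The YAPKO sum was below 2 times WT with the limits of 500 to 6000 read as UMIs (0.22, 18 macrophages) and without batch correction (0.90). The DKO sum was below it with those limits (0.62), without the cells of highest doublet score (0.91) and with cells picked from marker genes without clustering (0.93), where the TAZKO sum was 0.83. The sum also depended on the macrophage subcluster, as given below.

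Gpnmb and Trem2 encode surface glycoproteins. Gpnmb, a transmembrane glycoprotein of lysosomes and melanosomes, had 0 UMIs in WT macrophages, where the limit of 3 UMIs is 4.39 CPM. Its level was 453 CPM in YAPKO, 276 CPM in TAZKO and 162 CPM in DKO. Against the limit of 3 UMIs in WT, Gpnmb was at least 103-fold higher in YAPKO, at least 62.9-fold higher in TAZKO and at least 36.8-fold higher in DKO. The TAZKO value rested on few cells, since 65 of its 66 UMIs came from 2 macrophages, and without batch correction, where WT also had 0 UMIs, the lower bounds of the log2 ratio were 2.57 in YAPKO, 1.98 in TAZKO and 4.19 in DKO and TAZKO was not counted as higher. With cells picked from marker genes without clustering the log2 ratios of Gpnmb were 8.73, 8.86 and 7.22. Trem2, a receptor for lipids and lipoproteins that signals through the adaptor Tyrobp, stood at 130 CPM in WT, 781 in YAPKO, 255 in TAZKO and 278 in DKO. It was highest in YAPKO, with a log2 ratio to WT of 2.58 (2.28 to 2.91), and the ratios of TAZKO (0.97, 0.48 to 1.46) and DKO (1.10, 0.76 to 1.45) overlapped. Trem2 of DKO was below 2 times WT with the limits read as UMIs (0.45), without batch correction (0.97) and as a mean over cells (0.95). Trem2 of TAZKO, below 2 times WT here, was counted as higher with up to 20% mitochondrial UMIs (1.06), without the cells of highest doublet score (1.67) and with picked cells (1.24).

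Spp1 and Lgals3 encode secreted proteins. Spp1 is osteopontin, a ligand of integrins and CD44, and its level in macrophages was 2.93 CPM in WT, 1071 CPM in YAPKO, 12.6 CPM in TAZKO and 140 CPM in DKO. WT and TAZKO held only 2 and 3 UMIs of it, so Spp1 was near absent there at this depth, while YAPKO lay above WT by a log2 ratio of 8.52 (6.66 to 11.56) and DKO by 5.58 (3.71 to 8.64). Single cells carried much of both values, with 746 of 2858 Spp1 UMIs in 1 YAPKO macrophage and 93 of 191 in 2 DKO macrophages, and without batch correction Spp1 of DKO stood at 1.65 and was not counted as higher. Lgals3 is galectin-3, a lectin that binds damaged lysosomes, and was found at 736 CPM in WT, 2206 in YAPKO, 603 in TAZKO and 1374 in DKO. YAPKO exceeded WT by 2 times or more, with a log2 ratio of 1.58 (1.45 to 1.72), which was -0.0024 with the limits read as UMIs and 0.90 without batch correction. DKO stood at 0.90 (0.76 to 1.05) and was counted as higher with the limits read as UMIs (1.37), with up to 20% mitochondrial UMIs (1.21), with picked cells (1.03) and as a mean over cells (1.09).

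Fabp5 and Lpl handle fatty acids. Fabp5, a cytosolic fatty acid binding protein, stood at 70.2 CPM in WT macrophages, 2027 in YAPKO, 126 in TAZKO and 532 in DKO. Its log2 ratio was 4.85 (4.44 to 5.29) in YAPKO and 2.92 (2.50 to 3.37) in DKO, both above that of TAZKO at 0.84 (0.13 to 1.53), which was counted as higher without the cells of highest doublet score (1.15). With the limits read as UMIs Fabp5 was at 0.50 in YAPKO and 0.49 in DKO, and with cells picked from marker genes at 0.78 in DKO, all below 2 times WT. Lpl, the lipase that releases fatty acids from lipoprotein triglycerides, did not share this order. It was found at 483 CPM in WT, 549 in YAPKO, 142 in TAZKO and 253 in DKO, so that YAPKO stood near WT (log2 ratio 0.18), though with the limits read as UMIs it was at -2.09 (-4.61 to -0.0873). Lpl was lower than in WT in TAZKO by a log2 ratio of -1.76 (-2.32 to -1.25). DKO stood below WT at -0.93 (-1.15 to -0.71), a difference smaller than 2 times that was not counted as lower. The TAZKO value of Lpl was -1.05 with the limits read as UMIs (-2.97 to 0.68), where it was not counted, 0.23 without the cells of highest doublet score, -0.0119 without batch correction and -0.0106 with cells picked from marker genes, and that of DKO -0.22 without batch correction.

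The tetraspanins Cd63 and Cd9 differed from each other. Cd63, a membrane protein of lysosomes and exosomes, stood at 79.0 CPM in WT, 722 in YAPKO, 205 in TAZKO and 695 in DKO. YAPKO and DKO were alike, at log2 ratios of 3.19 (2.80 to 3.61) and 3.14 (2.74 to 3.56), and TAZKO was in between at 1.38 (0.79 to 1.96), where 24 of its 49 UMIs came from 1 cell. Cd63 of TAZKO was -0.0071 with the limits read as UMIs, 0.40 as a mean over cells and 0.15 without the 2 cells with most member UMIs. Cd9, found mainly at the plasma membrane, stood at 162 CPM in WT, 138 in YAPKO, 218 in TAZKO and 242 in DKO, below a ratio of 2 in each library. Cd9 of YAPKO was counted as lower with the limits read as UMIs (-1.50), and Cd9 of DKO as higher without batch correction (1.29). Atp6v0d2, a subunit of the proton pump that acidifies lysosomes, had 1 UMI in WT, 150 in YAPKO, 5 in TAZKO and 4 in DKO. Its YAPKO level of 56.2 CPM lay above WT (1.46 CPM) by a log2 ratio of 5.26 (2.76 to 10.58), which was 0.0148 without the cells of highest doublet score. Atp6v0d2 of DKO had too few UMIs to be counted, and with other settings it was counted as higher without batch correction (at least 1.79) and with picked cells (3.82) and as lower without the cells of highest doublet score (-3.92). Anpep, the surface aminopeptidase N, was found at 7.32, 22.9, 12.6 and 29.4 CPM in WT, YAPKO, TAZKO and DKO, and was higher than in WT in YAPKO by 1.64 (0.34 to 3.32) and in DKO by 2.01 (0.66 to 3.70). Anpep of YAPKO was at 0.0983 without batch correction and 0.74 with cells picked from marker genes, where it was not counted as higher.

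**Figure D1:**
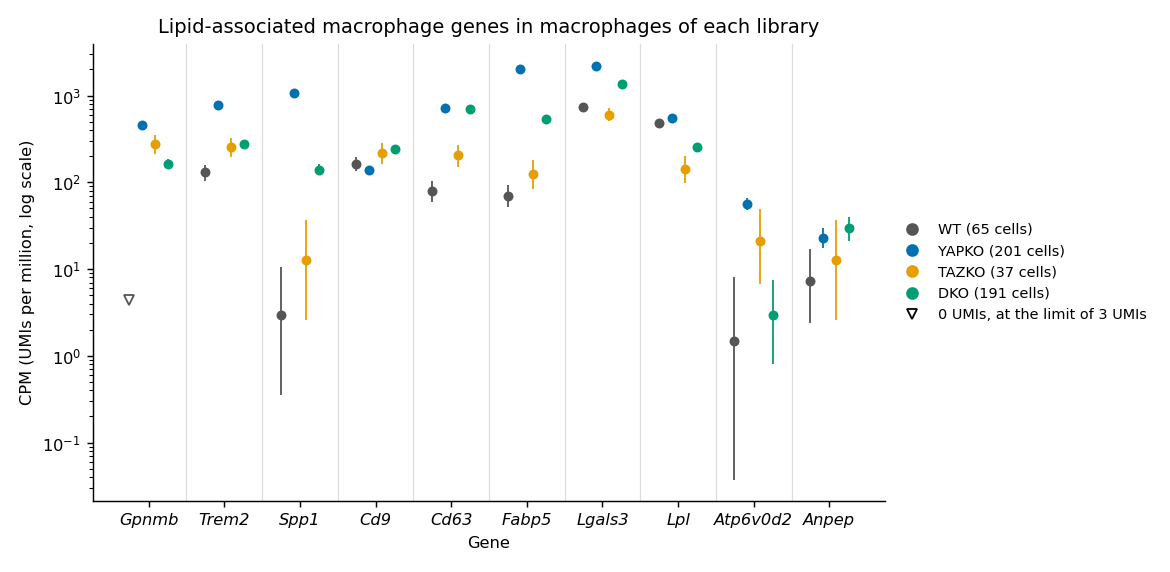
Level of each of the 10 genes in macrophages of each library, in CPM on a log axis, with exact Poisson 95% intervals; the open triangle marks 0 UMIs of Gpnmb in WT, drawn at the limit of 3 UMIs. Spp1 and Fabp5 ranged from 2.93 and 70.2 CPM in WT to 1071 and 2027 CPM in YAPKO, while Cd9 lay between 138 and 242 CPM in all 4 libraries.

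A gene was counted as higher where its CPM was at least 2 times that of WT and the interval of the ratio lay above 0, and as lower where it was at most 1/2 of WT with an interval below 0, among genes with at least 20 UMIs in the 2 libraries together. In YAPKO macrophages 8 of 10 members were higher and 0 lower, beside 3.26% higher and 7.48% lower of 8840 genes. In TAZKO 2 of 7 members with enough UMIs (Gpnmb and Cd63) were higher and 1 (Lpl) lower, beside 9.30% and 4.43% of 5570 genes. In DKO 6 of 9 were higher (Gpnmb, Trem2, Spp1, Cd63, Fabp5 and Anpep) and 0 lower, beside 4.98% and 5.44% of 7891 genes. The 3 comparisons share the WT library and its 0 to 5 UMIs of Gpnmb, Spp1, Atp6v0d2 and Anpep. The median log2 ratio of all these genes was -0.11 in YAPKO, 0.10 in TAZKO and 0.01 in DKO. Scaling by the median of the gene ratios in place of total UMIs moved YAPKO ratios by 0.12, to 2.38 for the sum of the 10 genes. The 8 other settings tried first moved several counted ratios by more than 1.5 times without ending the call. In YAPKO the lowest values under them were 1.20 for Trem2, 5.65 for Spp1 and 1.495 for Cd63, and without batch correction Fabp5 stood at 1.89. Spp1 of YAPKO had a value in only 6 of the 8 settings. Without batch correction and with the limits read as UMIs it had none, so its call could not be checked there. In DKO they were 1.57 for Cd63 and 1.24 for Anpep, Spp1 stood at 2.16 without the cells of highest doublet score, and Fabp5 at 2.25 without batch correction. Members were also counted as higher outside macrophages. In HCs 4 of 8 were higher and 0 lower in YAPKO, 1 of 7 and 2 in TAZKO, and 4 of 8 and 1 in DKO. The median of all HC genes also lay above WT (0.45, 0.57 and 0.48). In B cells 2 of 4, 0 of 3 and 1 of 3 were higher, and in endothelial cells 1 of 6, 0 of 7 and 0 of 7.

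**Figure D2:**
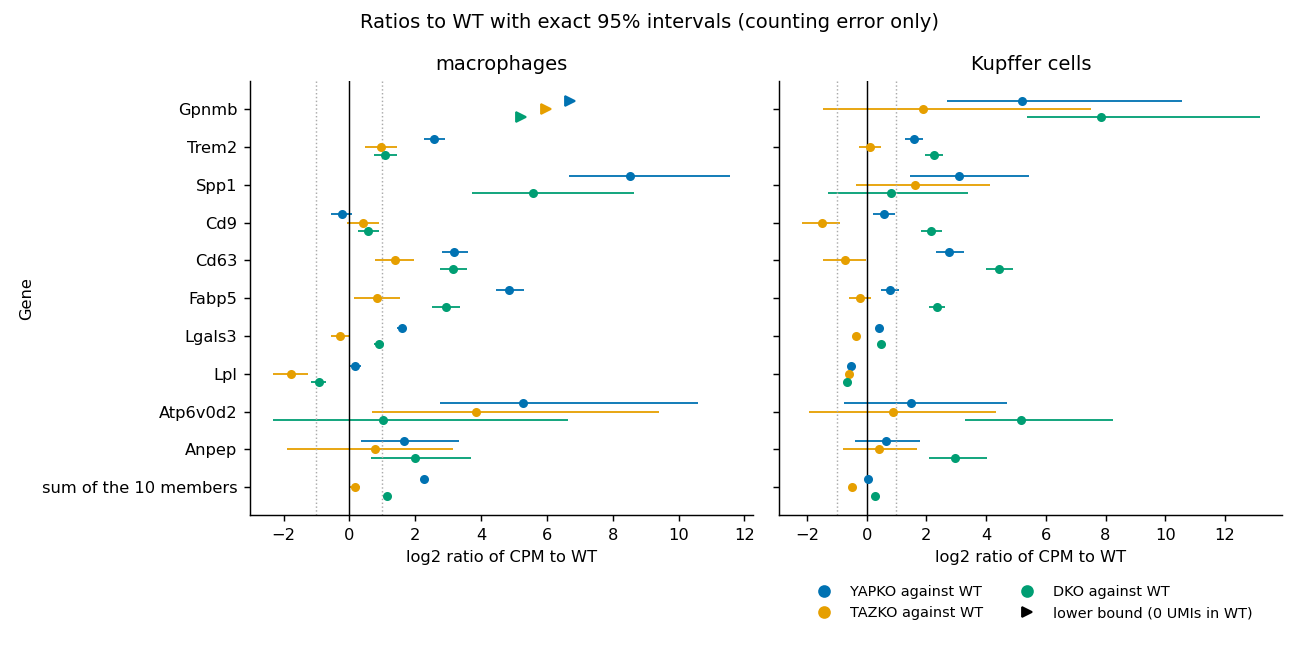
Log2 ratio of CPM to WT for each gene and for the sum of the 10 in macrophages (left) and Kupffer cells (right), 1 point per knock-out library with exact 95% intervals for counting error; dotted lines mark ratios of 2 and 1/2, triangles are lower bounds. In macrophages the sum stood at 2.26 in YAPKO and 1.15 in DKO, and in Kupffer cells at 0.06 and 0.29, where Gpnmb and Cd63 of DKO reached 7.85 and 4.45.

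Transcripts of other cell types differed between the macrophages of the libraries. The 8 HC markers, all detected in each library and led by Alb, summed to 2332 CPM in WT, 530 in YAPKO, 3365 in TAZKO and 816 in DKO. KC markers (7 of 7 detected, led by Cd5l or, in TAZKO, Vsig4) summed to 3041, 580, 1109 and 955 CPM. HC markers were thus lower than in WT in YAPKO and DKO, in which Fabp5 and Cd63 were higher, and KC markers in all 3 knock-out libraries, and the part of either in the ratios of the 10 genes was not tested. Monocyte markers summed to 1040, 1061, 871 and 228 CPM, led by Plac8 or Ccr2, with Ly6i at 0 in WT and Ly6c2 and Ly6i at 0 in TAZKO. Neutrophil markers reached 2738 CPM in YAPKO against 41.0, 83.7 and 43.3 CPM in WT, TAZKO and DKO, led by S100a9. Of these 7309 UMIs, 7129 lay in 1 YAPKO cell that held 25 UMIs of the 10 genes, and without it the markers summed to 68.0 CPM. BEC markers, relevant to Spp1, were near 0 (10.2, 5.99, 16.7 and 6.61 CPM, with Krt19 and Cldn4 at 0 in all 4 libraries). Mesothelial markers were at 0, 4 of 4 in each library. Basophil and mast cell markers summed to 51.2 CPM in WT and 0 in YAPKO, TAZKO and DKO. Platelet markers summed to 1459, 1246, 779 and 343 CPM, and endothelial markers to 168, 71.2, 96.3 and 133 CPM. Almost all of the platelet sum was Pf4, which is also a leading gene of a macrophage subcluster given below, so this sum does not show platelet RNA. The part of these 3 types was not tested. Markers of dividing cells (5 of 5, led by Top2a or Mki67) summed to 356, 63.7, 218 and 51.4 CPM. Markers of stellate cells and fibroblasts (5, 6, 4 and 6 of 8, led by Ecm1, with Col1a1 at 0 in each library) summed to 315, 101, 230 and 48.5 CPM. Both were lower in YAPKO and DKO, where the sum of the 10 genes was higher, and their part was not tested. Median depth was 9258 UMIs in WT macrophages, 12668 in YAPKO, 5545 in TAZKO and 6723 in DKO, and its part in the sum was not tested.

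All 10 genes lie on different autosomes apart from Gpnmb and Cd9, which share chromosome 6. In GRCm38 (mm10, GENCODE vM21) the protein-coding genes span chr6:49036546-49070929 for Gpnmb, chr17:48346401-48354147 for Trem2 and chr5:104435118-104441050 for Spp1, all on the plus strand. Cd9 spans chr6:125460266-125494791, Atp6v0d2 chr4:19876841-19922605 and Anpep chr7:79821803-79861059, on the minus strand. Cd63 spans chr10:128900989-128912822, Fabp5 chr3:10012548-10016607, Lgals3 chr14:47367751-47386160 and Lpl chr8:68880491-68907448, on the plus strand.

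Promoters from 250 bases before to 50 bases after the start were taken from RefSeq (GRCm38.p6) and searched for 6 motifs on both strands. Of the 10 genes, 7 had 8 promoters among 32851, and Fabp5, Lpl and Atp6v0d2 had no entry. The AP-1 motif TGANTCA was found in Gpnmb and Trem2, and in 7.81% of all promoters. The PU.1 motif GAGGAAGT was found in Spp1, and in 3.20% of all promoters. These 3 promoters are shown because they hold a match, with capitals marking the motif, at chr6:49036268-49036567 (Gpnmb), chr17:48346151-48346450 (Trem2) and chr5:104434861-104435160 (Spp1), all on the plus strand.
Gpnmb: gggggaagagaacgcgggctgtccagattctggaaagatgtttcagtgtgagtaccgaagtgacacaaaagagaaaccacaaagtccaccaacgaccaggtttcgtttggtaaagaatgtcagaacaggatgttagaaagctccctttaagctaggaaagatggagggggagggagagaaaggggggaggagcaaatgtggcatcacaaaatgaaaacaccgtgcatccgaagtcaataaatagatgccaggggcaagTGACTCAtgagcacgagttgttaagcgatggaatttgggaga
Trem2: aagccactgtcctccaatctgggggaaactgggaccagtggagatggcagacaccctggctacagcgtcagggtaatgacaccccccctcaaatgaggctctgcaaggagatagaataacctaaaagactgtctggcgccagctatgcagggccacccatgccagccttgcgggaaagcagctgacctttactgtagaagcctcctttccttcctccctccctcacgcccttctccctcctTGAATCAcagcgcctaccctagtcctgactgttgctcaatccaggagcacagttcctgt
Spp1: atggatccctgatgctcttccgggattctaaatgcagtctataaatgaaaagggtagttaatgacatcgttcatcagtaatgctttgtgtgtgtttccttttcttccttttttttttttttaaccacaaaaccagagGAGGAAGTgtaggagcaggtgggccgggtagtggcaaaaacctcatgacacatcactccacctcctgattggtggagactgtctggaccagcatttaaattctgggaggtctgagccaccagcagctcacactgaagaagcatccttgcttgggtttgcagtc
The Gpnmb match began 8 bases after the start, that of Trem2 began 9 bases before it (position -9) and that of Spp1 at -113. The E-box CACGTG (7.15% of all promoters), the MiT/TFE motif TCACGTGA that contains it (0.974%), the M-box TCATGTG (3.77%) and the TEAD motif GGAATG (14.7%) had no match in the 8 member promoters. A match is a description of letters in these windows.

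Macrophages fell into 2 subclusters, here called by their leading genes Ms4a7 and Slpi. The Ms4a7-led cells numbered 48 in WT, 160 in YAPKO, 31 in TAZKO and 169 in DKO. The Slpi-led cells numbered 17, 41, 6 and 22, or 26.2% (16.0 to 38.5), 20.4% (15.1 to 26.6), 16.2% (6.19 to 32.0) and 11.5% (7.36 to 16.9) of macrophages by Clopper-Pearson interval. The leading genes of the first subcluster were Ms4a7, Cx3cr1, Trem2, Pf4, Cd63, Gdf3, Clec4b1, H2-Eb1, Cyp4f18 and Clec4a2, with Trem2 and Cd63 members. The leading genes of the second subcluster were Slpi, Spp1, Prg4, Saa3, Retnla, Fn1, Fabp5, Gpnmb, Ngp and Camp, 3 of them members and none a macrophage marker. Ngp and Camp are granule genes of neutrophils and had UMIs there in YAPKO only, where the 1 cell with 7129 UMIs of neutrophil markers was Slpi-led. These cells were named by score, since macrophage markers had the highest score of any type in them (1.54, with platelets next at 1.09), against 2.55 in Ms4a7-led cells. Of the platelet markers, Pf4 gave almost all UMIs in macrophages. C1qa, C1qb and C1qc stood at 2620, 4363 and 2804 CPM in Slpi-led and 5380, 6981 and 4139 CPM in Ms4a7-led cells, and Cx3cr1 at 54.5 and 577 CPM. Over all libraries the Slpi-led cells held 62.3% of the member UMIs of macrophages, most of them from YAPKO. Scaled to all UMIs, the 10 genes summed to 15123 CPM in Slpi-led and 2788 CPM in Ms4a7-led cells. Trem2 stood at 1266 CPM in Slpi-led against 593 CPM in Ms4a7-led cells of YAPKO, 172 against 115 CPM in WT and 298 against 276 CPM in DKO. In TAZKO it stood at 31.6 against 336 CPM, but the 6 Slpi-led cells held 2 UMIs of it, below their limit of 3 UMIs (47.4 CPM).

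The Slpi-led cells did not carry the members in every library. In WT they held 21.0% of the member UMIs of macrophages and in TAZKO 13.6%, against 71.8% in YAPKO and 35.6% in DKO. Of all macrophage UMIs they held 26.4% in WT, 26.5% in TAZKO, 28.0% in YAPKO and 12.1% in DKO. Their member share thus lay above their share of all UMIs in YAPKO and DKO and below it in WT and TAZKO. Gpnmb and Spp1 had 0 UMIs in Slpi-led cells of WT and TAZKO, while YAPKO reached 1268 CPM of Gpnmb and 3501 CPM of Spp1, and DKO 747 and 869 CPM. Fabp5 stood at 66.6 CPM in WT, 78.9 in TAZKO, 5981 in YAPKO and 2856 in DKO. The other leading genes had another order: Slpi, a secreted protease inhibitor, was at 15223 CPM in WT, 2226 in TAZKO, 2182 in YAPKO and 158 in DKO, and Saa3, an acute phase protein, at 5603, 2258, 118 and 0 CPM. Fn1, which encodes fibronectin, was at 5581, 8921, 955 and 365 CPM in the same order.

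Ratios to WT were taken within each subcluster, as alternatives chosen after seeing the data. Within Slpi-led cells the sum of the 10 genes was higher than in WT by a log2 ratio of 3.95 (3.77 to 4.14) in YAPKO and 3.04 (2.84 to 3.24) in DKO, and lower in the 6 cells of TAZKO, at -0.47 (-0.90 to -0.06). The WT cells in these ratios held 15223 CPM of Slpi, against 2182 CPM in YAPKO, 2226 CPM in TAZKO and 158 CPM in DKO, and the part of this difference was not tested. Within Ms4a7-led cells it was 0.81 (0.71 to 0.91), 0.29 (0.12 to 0.47) and 0.60 (0.49 to 0.71), below a ratio of 2 in each library. Ms4a7 itself stood at 73.5 CPM in Ms4a7-led cells of WT, against 681 CPM in YAPKO, 302 CPM in TAZKO and 584 CPM in DKO. The part of this difference was not tested. Single genes were higher than in WT in Ms4a7-led cells too. Cd63 was at 2.79 in YAPKO, 1.92 in TAZKO and 3.31 in DKO, Trem2 at 2.36, 1.54 and 1.26, and Gpnmb at least at 4.51, 5.98 and 3.76. Fabp5 (2.77 and 1.57) and Spp1 (4.98 and 3.33, over 2 UMIs in WT) were higher in YAPKO and DKO. Lgals3 stood at 0.25 in both. Lpl was lower there than in WT, at -1.09 in YAPKO, -1.72 in TAZKO and -1.24 in DKO, and higher in Slpi-led cells of YAPKO (3.04). Cd9 of Ms4a7-led cells stood at 1.52 in TAZKO, 1.55 in DKO and -0.51 in YAPKO.

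**Figure D3:**
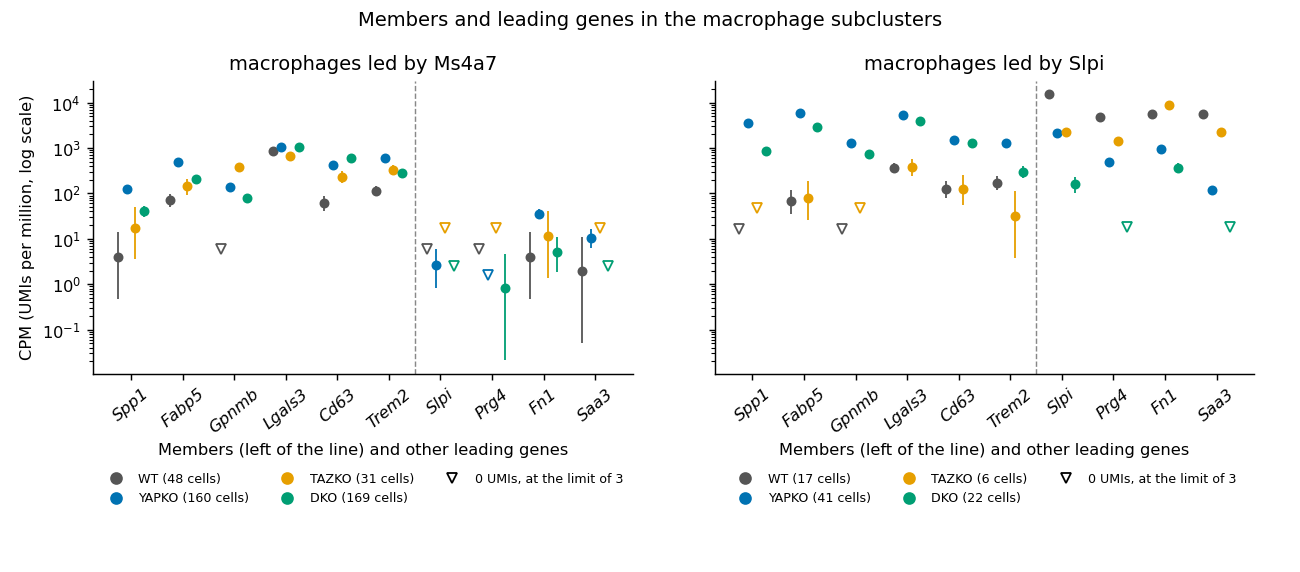
Levels in CPM (log axis) of 6 members and of 4 other leading genes in the Ms4a7-led (left) and Slpi-led (right) macrophages of each library, with exact Poisson 95% intervals; open triangles mark 0 UMIs, drawn at the limit of 3 UMIs. In Slpi-led cells Spp1 reached 3501 CPM in YAPKO and 869 CPM in DKO with 0 UMIs in WT and TAZKO, while Slpi was highest in WT at 15223 CPM.

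Few cells carried the TAZKO sum. The 2 TAZKO macrophages with the most member UMIs held 229 of 447, or 51.2%, against 14.1% in WT, 12.9% in YAPKO and 9.62% in DKO. Without 2 such cells in each library, an alternative chosen after seeing the data, the log2 ratio of the sum in TAZKO was -0.59. Of the 66 TAZKO UMIs of Gpnmb in macrophages, all lay in Ms4a7-led cells. The other libraries spread Gpnmb over more cells, with 69 of 201 YAPKO macrophages and 53 of 191 DKO macrophages holding a UMI.

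Members per cell were compared after thinning each cell to 2000 UMIs, which left out 2, 1, 1 and 3 shallower macrophages of WT, YAPKO, TAZKO and DKO. A UMI of 5 or more of the 10 genes was found in 0 of 63 WT macrophages, where the exact interval reaches 5.69% and the limit of 3 cells is 4.76%, in 52 of 200 of YAPKO (26.0%, interval 20.1 to 32.7), in 3 of 36 of TAZKO (8.33%, 1.75 to 22.5) and in 27 of 188 of DKO (14.4%, 9.68 to 20.2). Unthinned, the shares were 23.1%, 57.2%, 10.8% and 41.9%. Such cells made up 32 of 41 Slpi-led macrophages of YAPKO and 12 of 22 of DKO. In KCs the thinned shares were 0%, 0.982%, 0% and 7.38%, and no thinned B cell of any library had 5 members. Monocytes had another order, with WT highest at 3.85% (2 of 52 cells, 0.469 to 13.2), YAPKO at 1.80%, TAZKO at 0% and DKO at 0.568%. B cells were the background type, with median depths of 2944, 2864.5, 2861 and 2181.5 UMIs and 18, 25, 50 and 105 shallower cells left out.

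**Figure D4:**
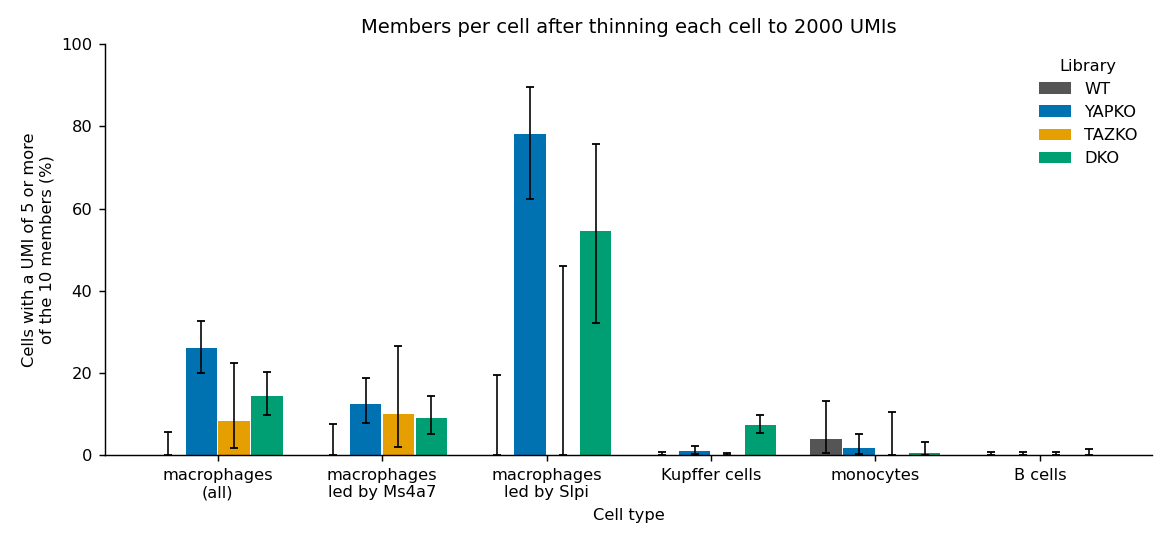
Share of cells (%) with a UMI of 5 or more of the 10 genes after thinning each cell to 2000 UMIs, by cell type and library; bars start at 0 and carry Clopper-Pearson 95% intervals. Slpi-led macrophages of YAPKO (78.0%) and DKO (54.5%) stood highest, Kupffer cells reached 7.38% in DKO, monocytes 3.85% in WT, and B cells 0% in all 4 libraries.

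Single genes had different orders of libraries. After thinning, Gpnmb was found in 0% of WT macrophages, 20.5% (15.1 to 26.8) of YAPKO, 5.56% (0.68 to 18.7) of TAZKO and 14.4% (9.68 to 20.2) of DKO, and in 0% of B cells of each library; unthinned shares in macrophages were 0%, 34.3%, 8.11% and 27.7%. Trem2 was found in 11.1% of thinned WT macrophages, 58.5% of YAPKO, 19.4% of TAZKO and 33.0% of DKO, with at most 0.433% of B cells. Fabp5 was found in 12.7%, 43.5%, 19.4% and 23.9% of thinned macrophages. Its share in B cells was 10.5% in WT, 7.16% in YAPKO, 10.4% in TAZKO and 4.76% in DKO, so the WT share of macrophages was near that background. Cd9 was found in 22.2%, 13.5%, 33.3% and 34.0% and Lpl in 41.3%, 39.5%, 13.9% and 21.8% of thinned macrophages, so neither was most frequent in YAPKO. In B cells Cd9 was found in 4.87%, 2.96%, 3.88% and 5.63%, and Lpl in at most 0.555%. Cd63 was found in 22.2%, 50%, 19.4% and 50.5%, with at most 0.433% of B cells. Lgals3 was found in 52.4%, 70.0%, 47.2% and 64.4%, and in B cells in 4.87%, 8.64%, 2.40% and 17.3%, so TAZKO was lowest in both types. Unthinned, Trem2 was found in 58.5%, 86.6%, 37.8% and 61.3% of macrophages and Fabp5 in 47.7%, 75.1%, 35.1% and 44.5%.

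Macrophages with and without a Gpnmb UMI after thinning were compared for the other 9 genes, as a description. Gpnmb was seen in 70 of the thinned macrophages and not in 417, and 34 of the 70 were Slpi-led. The other 9 genes summed to 12493 CPM with Gpnmb and 2478 CPM without it, a log2 ratio of 2.33 (2.24 to 2.43). Within YAPKO the ratio was 2.27 (2.15 to 2.39) over 41 and 159 cells, and within DKO 1.75 (1.58 to 1.92) over 27 and 161 cells. Atp6v0d2 (3.69, 1.73 to 6.19), Fabp5 (3.52) and Spp1 (3.41) had the largest ratios in YAPKO, and Spp1 (3.40) and Fabp5 (2.68) in DKO, where Atp6v0d2 had 2 UMIs. Cd9 differed little in YAPKO, at 0.59 (-0.51 to 1.59).

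KCs, the resident macrophages, numbered 428 in WT, 526 in YAPKO, 891 in TAZKO and 619 in DKO. Here 4 of 9 members with enough UMIs were higher in YAPKO (Gpnmb, Trem2, Spp1 and Cd63) and 0 lower, beside 1.09% and 3.45% of 11353 genes. In TAZKO 0 of 7 were higher and 1 (Cd9) lower, beside 8.12% and 3.36% of 11204 genes, and in DKO 7 of 9 were higher and 0 lower, beside 3.21% and 2.87% of 11245 genes. The median log2 ratio of all genes was 0.25 in TAZKO and within 0.05 of 0 in YAPKO (-0.04) and DKO (0.03). Scaling by the median gene ratio shifted TAZKO KCs by 0.23.

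Within KCs, Gpnmb was found at 0.218 CPM in WT (1 UMI), 8.14 in YAPKO, 0.803 in TAZKO and 50.4 in DKO, so DKO lay above WT by a log2 ratio of 7.85 (5.36 to 13.16) and YAPKO by 5.22 (2.69 to 10.54). The YAPKO value rested on few cells, as 1.33% of its 526 KCs held its 67 UMIs, and after thinning Gpnmb was found in 2 of 509 (0.393%, 0.0476 to 1.41) against 1 of 400 in WT (0.25%, 0.00633 to 1.38). In DKO it was found in 31 of 583 thinned KCs (5.32%, 3.64 to 7.46). Cd63 stood at 9.60, 65.7, 5.82 and 209 CPM, with log2 ratios of 2.77 (2.33 to 3.25) in YAPKO and 4.45 (4.01 to 4.91) in DKO. With the limits read as UMIs Gpnmb of DKO (2.13) and Cd63 of YAPKO (2.97) were no longer counted as higher. DKO was the highest library for both genes in KCs, whereas YAPKO was highest for Gpnmb in macrophages with the main settings. Without batch correction the lower bound of macrophage Gpnmb was larger in DKO (4.19) than in YAPKO (2.57). With picked cells its log2 ratio was larger in TAZKO (8.86) than in YAPKO (8.73). In KCs Atp6v0d2 (5.17), Anpep (2.98), Fabp5 (2.35), Trem2 (2.26) and Cd9 (2.16) were also higher than in WT in DKO, though Fabp5 was at 0.67 with the limits read as UMIs and 0.65 with picked cells. Trem2 of YAPKO KCs was at 0.65 and 0.83 in these settings, and Cd9 of TAZKO KCs, at -1.51, was at -0.85 with the limits read as UMIs. Spp1 followed another order, at 0.655 CPM in WT, 5.59 in YAPKO, 2.01 in TAZKO and 1.16 in DKO, and the YAPKO ratio was no longer counted without batch correction (1.54) or without the cells of highest doublet score (1.12). Lpl stood below its WT level of 1162 CPM in all 3 knock-out libraries, at -0.52 in YAPKO, -0.60 in TAZKO and -0.66 in DKO. Each difference was smaller than 2 times, so Lpl was not counted as lower. The sum of the 10 genes, mostly Lgals3 and Lpl in KCs, differed little from WT, at 0.06, -0.48 and 0.29, and without these 2 genes was 1.47, -0.26 and 2.92. Calls were gained in other settings for Spp1 of TAZKO (-1.75) and DKO (-2.82) with picked cells, for Cd63 of TAZKO in that setting (-1.10) and as a mean over cells (-1.06), for Lpl of TAZKO with the limits read as UMIs (-1.01) and for Fabp5 of YAPKO (1.00, from 0.78) with up to 20% mitochondrial UMIs.

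Monocytes numbered 52 in WT, 167 in YAPKO, 34 in TAZKO and 178 in DKO. In TAZKO Trem2 (-1.39), Cd63 (at most -2.77) and Atp6v0d2 (at most -1.90) were lower than in WT, but without batch correction they were at 0.67, 0.0888 and -1.24 and not counted, nor was Cd63 without the cells of highest doublet score (-0.24) or Trem2 with picked cells (-0.73). Atp6v0d2 had 0 UMIs in YAPKO (at most -4.73) and DKO monocytes too, and all 23 of its UMIs in WT monocytes lay in 1 cell. Fabp5 of DKO (1.11) and Spp1 of YAPKO (1.92) were higher, Fabp5 at 0.36 with picked cells and not counted there, and Spp1 between 1.12 with picked cells and 5.63 without batch correction. Gpnmb had 0 UMIs in WT and TAZKO, 27.3 CPM in YAPKO and 31.9 CPM in DKO, at least 4.41-fold and at least 5.16-fold above the limit in WT, though with picked cells Gpnmb of DKO (2.09) was not counted. After thinning, 4 of 167 YAPKO and 6 of 176 DKO monocytes held a UMI of it. Cd9 was lower than in WT in all 3 knock-out libraries, at 173 CPM in WT against 26.7, 42.4 and 42.6 CPM, but with cells picked from marker genes it was at -0.50, 0.67 and 0.18, without the cells of highest doublet score at -0.70, 0.22 and 0.70 and without batch correction at -1.003, -0.997 and -0.66, where YAPKO alone was counted. As a mean over cells Cd9 of TAZKO was at -0.65. Scaling by the median gene ratio shifted DKO monocytes by -0.12 and type 2 conventional dendritic cells of TAZKO by -0.11. Shares over all genes were taken in macrophages and KCs only, so member calls in monocytes, dendritic cells, HCs, B cells and endothelial cells stand without that comparison. In type 1 conventional dendritic cells Lpl was the 1 member counted, higher in YAPKO (2.97, 0.95 to 6.10) and TAZKO (3.95, 1.95 to 7.08) over 2 UMIs in WT. With cells picked from marker genes Lpl was at -1.16 in YAPKO and 1.08 in TAZKO and not counted, nor was YAPKO with up to 20% mitochondrial UMIs (0.83) or without the cells of highest doublet score (0.93). In plasmacytoid dendritic cells Lpl was lower than in WT in all 3, at -2.30 in YAPKO, -2.62 in TAZKO and -2.98 in DKO, and no other setting was tried for these cells. Lgals3 was higher there in YAPKO (1.21, 0.99 to 1.43), and Cd9 (-1.05, -1.68 to -0.42) and Cd63 (-2.62, -3.87 to -1.52) were lower in TAZKO. In type 2 conventional dendritic cells Spp1 of YAPKO (2.10, 0.09 to 5.22) and Lpl of DKO (4.13, 1.59 to 9.46) were counted as higher, each over at most 2 UMIs in WT, and neither was without the cells of highest doublet score (0.41 and 1.19), nor Lpl with up to 20% mitochondrial UMIs (2.40).

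Across 14 cell types with at least 20 cells of a library, the 10 genes had different highest types by the median over libraries. Gpnmb (median 219 CPM, 0 to 453), Trem2 (267 CPM, 130 to 781), Cd63 (450 CPM, 79.0 to 722) and Atp6v0d2 (11.9 CPM, 1.46 to 56.2) were highest in macrophages, and each range overlapped that of the next type. For Gpnmb the next types were monocytes (13.7 CPM), then KCs (4.47 CPM). For Trem2 they were monocytes (109 CPM), KCs (50.7 CPM) and dividing KCs (40.4 CPM), the last without overlap with neutrophils at 5.96 CPM. Endothelial cells, BECs and type 1 and type 2 conventional dendritic cells held 0 UMIs of Gpnmb.

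The other 6 genes were highest elsewhere. Spp1 was highest in BECs, at a median of 13851 CPM (11317 to 17162) over 3 libraries, with no overlap with macrophages (76.4 CPM). Fabp5 had its highest median in endothelial cells (713 CPM, 518 to 804), followed by HCs (448 CPM, 108 to 517) without overlap. The range of endothelial cells did overlap those of stellate cells and fibroblasts (433 CPM, 323 to 541) and macrophages (329 CPM, 70.2 to 2027), with the highest single value in YAPKO macrophages. Anpep was highest in type 1 conventional dendritic cells (74.7 CPM, 48.9 to 79.0), above BECs (24.5 CPM) without overlap. Cd9 was highest in neutrophils (789 CPM) and BECs (615 CPM), Lgals3 in monocytes (1753 CPM), then macrophages (1055 CPM), and each of these neighbours overlapped. Lpl was highest in dividing KCs (920 CPM) and KCs (786 CPM), which overlapped each other but not macrophages (368 CPM, 142 to 549).

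**Figure D5:**
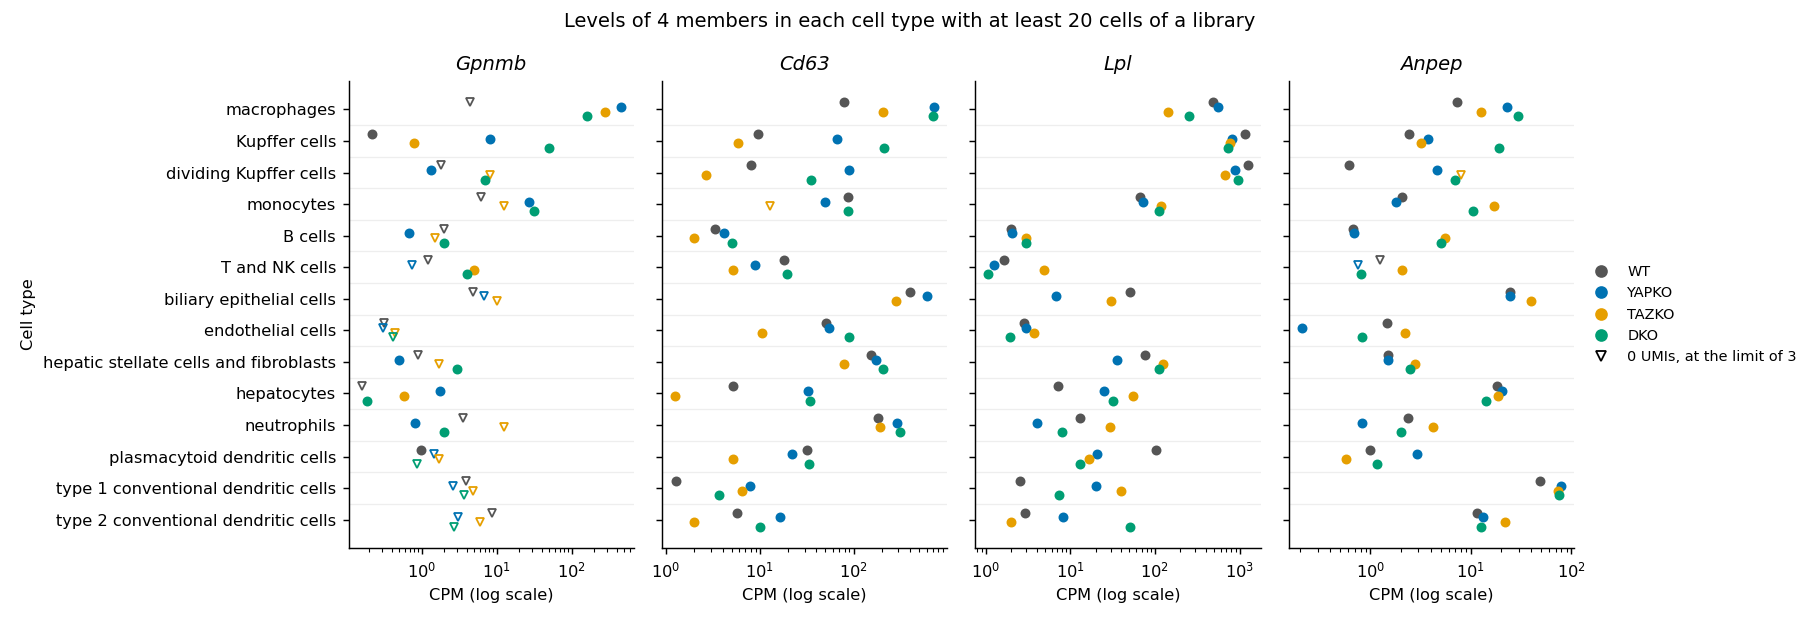
Levels of Gpnmb, Cd63, Lpl and Anpep in each cell type with at least 20 cells of a library, in CPM on a log axis, 1 point per library; open triangles mark 0 UMIs, drawn at the limit of 3 UMIs. Gpnmb was highest in macrophages of the 3 knock-out libraries (162 to 453 CPM), Lpl in dividing and other Kupffer cells, and Anpep in type 1 conventional dendritic cells.

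The cells that held most UMIs of a gene differed accordingly. Of 2644 Gpnmb UMIs in kept cells, 56.5% lay in macrophages, which were 1.63% of cells, 14.2% in KCs and 22.5% in unnamed clusters. The macrophage share of Gpnmb was 75.4% in YAPKO, 28.4% in TAZKO and 27.3% in DKO, where KCs held 37.8%, and unnamed clusters of TAZKO held 58.2%. WT held 3 Gpnmb UMIs in all its 7155 cells, against 1604 in YAPKO, 232 in TAZKO and 805 in DKO. By contrast 66.6% of Spp1 UMIs lay in BECs, 51.4% of Lpl UMIs in KCs and 60.6% of Anpep UMIs in HCs.

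Genes of related function were counted in macrophages from lists, beside 3.26% higher and 7.48% lower of all genes in YAPKO, 9.30% and 4.43% in TAZKO and 4.98% and 5.44% in DKO. Of lysosome genes, 6 of 23 were higher and 0 lower in YAPKO, 2 of 21 and 0 in TAZKO, and 3 of 23 and 0 in DKO, with median log2 ratios of 0.69, 0.20 and 0.51 beside -0.11, 0.10 and 0.01 over all genes. Ctsd, the protease cathepsin D, stood at 732 CPM in WT, 4230 in YAPKO, 1348 in TAZKO and 1502 in DKO (log2 ratios 2.53, 0.88 and 1.04). Npc1, which exports cholesterol from lysosomes, was higher in each knock-out library (1.44, 1.06 and 1.46). In KCs 0 of 23 lysosome genes were counted in either direction in any library. Of all genes in KCs, 1.09% were higher and 3.45% lower in YAPKO, 8.12% and 3.36% in TAZKO, and 3.21% and 2.87% in DKO. Of lipid uptake, storage and efflux genes, 5 of 18 were higher and 1 lower in YAPKO, 5 of 16 and 1 in TAZKO, and 3 of 17 and 2 in DKO, Fabp5 and Lpl included. Nceh1, a cholesteryl ester hydrolase, was higher in all 3 (1.85, 1.93 and 1.71), Plin2, a coat protein of lipid droplets, in YAPKO (1.53), and the apolipoprotein gene Apoc1 was lower in YAPKO (-1.65) and DKO (-1.55).

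Partners of Trem2 and Spp1 came from short lists, in which a single gene is a large share. In the list of TREM2 receptor complex and signalling genes, Trem2 itself was the 1 of 11 counted as higher in YAPKO and in DKO, and Syk (1.03) and Plcg2 (1.08), kinase and phospholipase downstream of the receptor, were the 2 of 11 in TAZKO, with 0 lower in each. Of osteopontin receptors, 0 of 6 were counted in YAPKO, 1 of 6 was higher in TAZKO (Cd44, 1.45) and 2 of 6 in DKO (the integrin genes Itgb5, 1.42, and Itga9, 1.11), with 0 lower. Among lipoprotein lipase partners, the apolipoprotein gene Apoc3 was lower than in WT in YAPKO (-1.82) and DKO (-1.89) and Apoa5 in YAPKO (-2.16). HCs secrete both proteins, and HC markers were also lower in these macrophages (530 and 816 CPM against 2332 CPM in WT); their part was not tested. Angptl4, an inhibitor of the lipase, was higher in YAPKO (1.56).

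Of lipid-sensing and MiT/TFE transcription factors, 2 of 14 were higher and 1 lower in YAPKO, 2 of 11 and 1 in TAZKO, and 3 of 14 and 0 in DKO. Mitf and Tfeb, regulators of lysosomal genes, stood at 10.2 and 13.2 CPM in WT, 24.0 and 30 CPM in YAPKO, and 24.2 and 33.0 CPM in DKO (log2 ratios 1.23 and 1.19, 1.24 and 1.33). WT held only 7 UMIs of Mitf and 9 of Tfeb. The intervals were wide, at 0.10 to 2.60 and 0.19 to 2.37 in YAPKO and 0.04 to 2.66 and 0.28 to 2.55 in DKO. Tfe3 of the same family was higher in TAZKO (1.67) and DKO (1.10). Further lipid-associated macrophage genes, 23 beyond the 10, gave 12 of 22 higher and 1 lower in YAPKO, 2 of 15 and 0 in TAZKO, and 10 of 21 and 0 in DKO, with medians of 1.11, 0.10 and 0.86. Syngr1 was at 1.46 CPM in WT (1 UMI), 132 in YAPKO, 8.37 in TAZKO (2 UMIs) and 43.3 in DKO, so WT and TAZKO lay below the limit of 3 UMIs. Itgax, the integrin CD11c, was at 8.78, 38.2, 29.3 and 80.0 CPM, and Mmp12, an elastase, at 32.2, 127, 67.0 and 236 CPM. In KCs 4 of 21 of these genes were higher in YAPKO, 0 of 19 in TAZKO and 8 of 23 in DKO, with 0, 3 and 0 lower, beside 1.09%, 8.12% and 3.21% higher and 3.45%, 3.36% and 2.87% lower of all genes.

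KC identity genes and inflammatory genes were counted as lower more often than as higher in each knock-out library, and the counts of monocyte genes differed between libraries. Of KC identity genes, 1 of 14 was higher and 9 lower in YAPKO macrophages, 1 of 13 and 7 in TAZKO, and 1 of 14 and 7 in DKO, with medians of -1.23, -1.43 and -0.92. Clec4f, a lectin of KCs, stood at 938 CPM in WT, 79.8 in YAPKO, 234 in TAZKO and 173 in DKO. Of inflammatory macrophage genes, 0 of 9 were higher and 7 lower in YAPKO, 1 of 8 and 4 in TAZKO, and 0 of 9 and 3 in DKO. Ccl2, a chemokine that draws monocytes, was at 143 CPM in WT and 37.8, 16.7 and 19.1 CPM in YAPKO, TAZKO and DKO. Of monocyte genes, 3 of 8 were higher and 0 lower in YAPKO, 1 of 6 and 1 in TAZKO, and 0 of 7 and 4 in DKO. Plac8 was at 689, 403, 205 and 27.2 CPM, and Chil3 at 2.93, 118, 8.37 and 8.08 CPM, so YAPKO and DKO macrophages, alike in Cd63, differed in monocyte genes.

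With the 10 members and marker genes of other types left out, the genes with the largest ratios in the same direction in YAPKO and DKO macrophages were Syngr1, Ms4a7, Igkc, Igf2r and Aph1c above WT, and Retnla, Saa3, Mup11, Lyve1 and Mup21 below it. They were ranked by the smaller of the 2 ratios with 1 added to each UMI count, which places Igf2r by its 0 UMIs in WT: its lower bounds of 1.49 in YAPKO and 1.81 in DKO lie below the ratios of some genes not listed, such as Vat1 (2.81 and 2.75). Ms4a7 was at 57.1 CPM in WT, 599 in YAPKO, 230 in TAZKO and 565 in DKO. Retnla, a secreted protein of alternatively activated macrophages and a leading gene of the Slpi-led cells, was at 1266, 5.25, 8.37 and 20.6 CPM. In WT all 865 Retnla UMIs and 1010 of 1011 Saa3 UMIs of macrophages lay in Slpi-led cells. Lyve1 was at 195, 8.62, 389 and 8.08 CPM, so it was higher than in WT in TAZKO. Mup11 and Mup21 are major urinary protein genes of HCs. HC markers were also lower in YAPKO and DKO macrophages (530 and 816 CPM against 2332 CPM in WT), and their part was not tested.

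Near relatives of the members did not always follow them. Lgals1, a galectin like Lgals3, was at 211 CPM in WT macrophages, 1134 in YAPKO, 243 in TAZKO and 555 in DKO (log2 ratios 2.43, 0.20 and 1.40). Fabp4 was at 73.2, 127, 62.8 and 15.4 CPM and thus lower than in WT in DKO (-2.25, -3.06 to -1.48), where Fabp5 was higher. Atp6v0d1, the widely expressed counterpart of Atp6v0d2, was at 110, 132, 130 and 118 CPM. The tetraspanin Cd81 was at 1016, 511, 770 and 1177 CPM. Pmel, a relative of Gpnmb, had 0 UMIs in macrophages of all 4 libraries, and the lipase gene Lipc at most 2 UMIs in any.

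The genes most like the mean of the 10 across 55 groups of type and library, by Pearson's r of log2(CPM + 10), were Syngr1 (0.83), Cstb (0.81), Bri3 (0.76), Pparg (0.76), Ms4a7 (0.75), Gdf3 (0.75), Myof (0.75), Anxa4 (0.72), Cd14 (0.72) and Rab20 (0.71). The 55 groups come from 4 libraries and 14 types and share depth and cells of origin, so r is a description. Cstb, an inhibitor of cathepsins, was at 277 CPM in WT macrophages, 972 in YAPKO, 297 in TAZKO and 970 in DKO. Pparg, a fatty acid-activated nuclear receptor, was at 20.5, 34.5, 29.3 and 38.2 CPM. Among the 10 genes, Trem2 (0.70), Cd63 (0.66) and Gpnmb (0.64) followed the mean of the other 9 most closely and Fabp5 (0.13) and Cd9 (0.24) least.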

How the data were processed

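Single-cell RNA-seq of 4 livers was analysed from the UMI counts of the 4 matrices that the authors deposited, made with Cell Ranger (6.0.1 in the processing notes, 4.0.0 in the matrix headers) and mm10. Cells were clustered with Scanpy 1.11.5 and leidenalg 0.10.2 (2000 variable genes without the 10 members, batch correction by library, seed 1) with Python 3.11.15, and clusters were named from 131 markers. Doublets were kept, and the 8% of cells with the highest Scrublet score were left out in an alternative. UMIs were summed by type and library, scaled to CPM, and compared as log2 ratios with exact intervals (scipy 1.17.1; numpy 2.4.6). The intervals were run on simulated counts with counting error only. That simulation lacked the uneven spread of UMIs over cells, so it does not show that the intervals hold for it. A count of 0 was read as a limit of 3 UMIs. The members and 10 lists of 140 genes were chosen with earlier results of these data known; the counts of 1 list are not used here. Symbols of 10 of 10 members and 55141 of 55488 genes matched the annotation. Named genes were the members, up to 4 genes per list with the largest ratios, 6 paralogs, the 10 genes most like the members, 5 genes in each direction shared by YAPKO and DKO, and Yap1 and Wwtr1, and the leading genes of subclusters were named after their values were seen. The first 8 alternatives changed the limits on cells and mitochondrial UMIs, batch correction, resolution, doublets, choice of cells, scaling and weight of cells, and 5 more were chosen after seeing the data (each subcluster alone, without the 2 cells with most member UMIs, without a cell with neutrophil markers, and the sum without Lgals3 and Lpl).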

Additional observations from a re-analysis of the deposited data

Results flagged for a closer look

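Atp6v0d2 differed in direction between cell types in YAPKO, as its log2 ratio against WT was 5.26 among macrophages and at most -4.73 among monocytes. All 23 UMIs of WT monocytes lay in 1 of 52 cells, and 0 UMIs were found in 167 YAPKO monocytes. In macrophages WT held 1 UMI and YAPKO 150, in 18 of 201 cells. Without the cells of highest Scrublet score the macrophage ratio of Atp6v0d2 was 0.0148, and without batch correction the monocyte ratio was -0.0658. Cd63 differed likewise in TAZKO, at 1.38 in macrophages and at most -2.77 in monocytes. WT monocytes held 42 Cd63 UMIs in 6 cells, 26 of them in 1 cell, and the 34 TAZKO monocytes held 0. In TAZKO macrophages 24 of 49 Cd63 UMIs lay in 1 cell. The macrophage ratio of Cd63 turned to -0.0071 with the limits on cells read as UMIs and to -0.0145 in Slpi-led cells, and the monocyte ratio to 0.0888 without batch correction. Each side is 1 library, and neither difference between cell types was tested.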

How the results depend on the processing

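Of the 17 member ratios in macrophages counted as higher or lower, 187 of 191 values under the alternatives kept their direction and 165 their call. Calls held under each of the first 8 alternatives that gave a value for 7 of the 17 (Gpnmb, Trem2, Spp1 and Cd63 in YAPKO, Gpnmb, Cd63 and Anpep in DKO) and under all for 6, without Anpep. Spp1 of YAPKO had a value in 6 of the first 8. With the limits read as UMIs, which left 13, 18, 16 and 73 macrophages, the log2 ratio of the summed members was 0.22 in YAPKO, -0.10 in TAZKO and 0.62 in DKO, 5 member ratios were counted, and macrophage Lgals3 of YAPKO (-0.0024) and Cd63 of TAZKO (-0.0071) turned direction. With up to 20% mitochondrial UMIs the sums were 2.51, 0.44 and 1.32. Without batch correction they were 0.90, -0.0602 and 1.02, with 11 member ratios counted, and Trem2 (0.67) and Cd63 (0.0888) of TAZKO monocytes turned. Without the cells of highest Scrublet score they were 2.05, 0.71 and 0.91, and macrophage Lpl of TAZKO (0.23) and monocyte Cd9 of TAZKO (0.22) and DKO (0.70) turned. With cells picked from marker genes they were 2.03, 0.83 and 0.93, and monocyte Cd9 of TAZKO (0.67) and DKO (0.18) and Lpl of YAPKO type 1 dendritic cells (-1.16) turned. The YAPKO sum was 2.38 with the median of ratios and 2.10 as a mean over cells. In alternatives chosen after seeing the data, the sum was 0.81 in YAPKO and 0.60 in DKO in Ms4a7-led cells, 3.95, -0.47 and 3.04 in Slpi-led cells, where Cd63 of TAZKO was -0.0145, -0.59 in TAZKO without the 2 cells with most member UMIs, which held most of its UMIs, and 3.54, 1.31 and 2.20 without Lgals3 and Lpl. Apart from these smaller sets of cells, the cause was not tested. Resolution 0.8 and leaving out the cell with neutrophil markers moved no sum beyond its interval. In other types 252 of 324 member values were the same, 65 moved and 7 reversed, and 65 of 99 sums were the same and 34 moved. Of 73 values of genes called and of cells with 5 or more members, 57 were the same and 16 moved. No value could be given for 26 member ratios, 12 of them with the limits read as UMIs. A bound on the other side of 0 from the main value was at first labelled as turned, and this was corrected after the labels were seen, since a bound gives no direction. No paired analysis was possible because each genotype has only replicate 1. Depth limits genes of few UMIs: the limit of 3 UMIs is 12.6 CPM in TAZKO macrophages.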
